A study of Mus musculus with 12 samples.

Results

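The mouse T cell receptor (TCR) beta V segments TRBV12-1, TRBV12-2 and TRBV16 were followed through TCR beta libraries of transferred CD4+ T cells. A clonotype is 1 combination of a V segment and the bases of the complementarity-determining region 3 (CDR3), and it was counted as a member when the first V segment that its library table listed was 1 of these 3. The rule used no measured abundance. It found 8973 clonotypes among the 113664 of the 12 libraries, 1939 with TRBV12-1, 1457 with TRBV12-2 and 5577 with TRBV16, and these held 7.04% of all unique molecular identifiers (UMIs, tags that mark single cDNA molecules). Naive CD4+CD25-CD44-CD62L+ T cells from C57BL/6 donors had been injected intraperitoneally into Rag2-/- mice, which make no T or B cells of their own, a model in which the transferred cells cause colitis. Donors were PRKAA1fl/fl (WT) or CD4-Cre PRKAA1fl/fl (KO), so that both carried the floxed Prkaa1 alleles, and in KO the AMPKα1 gene was deleted from the CD4+CD8+ thymocyte stage on. By the study's methods mice were used at 6 to 8 weeks, and T cells were taken from the spleen and the mesenteric lymph node (mLN) 6 weeks after transfer, from 3 mice per genotype, WT replicates 1, 3 and 4 and KO replicates 1, 2 and 3. The libraries hold TCR beta transcripts alone, so neither the deletion nor the CD4+ label could be checked against marker genes.

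Each TCR beta chain is made in the thymus when 1 V, 1 D and 1 J segment are joined, with bases trimmed and added at the joints, and the joint encodes CDR3. The V segment largely decides whether a receptor can bind a superantigen, a protein that bridges class II molecules and the side of the V beta domain. In mouse strains that carry endogenous mammary tumor virus superantigens and express the class II molecule I-E, thymocytes with the Vβ5 family (TRBV12-1 and TRBV12-2) or Vβ11 (TRBV16) are deleted, whereas C57BL/6 mice do not express I-E. In RefSeq, TRBV12-1 carries the older name Tcrb-V5.2, TRBV12-2 carries Tcrb-V5.1 and TRBV16 carries Tcrb-V11.

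The germline 3′ ends of the segments show what a member CDR3 starts with and where it was cut. They lie on the plus strand of chromosome 6 in GRCm38, at chr6:41114053-41114106 for TRBV12-1, chr6:41119350-41119403 for TRBV12-2 and chr6:41152214-41152269 for TRBV16. Each run begins in the second exon, at the conserved cysteine codon that opens CDR3, and continues into the recombination signal downstream of the gene, of which the heptamer and the nonamer are in capitals with the spacer between them.
TRBV12-1: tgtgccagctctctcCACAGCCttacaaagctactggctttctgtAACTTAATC
TRBV12-2: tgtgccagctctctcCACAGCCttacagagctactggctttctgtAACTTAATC
TRBV16: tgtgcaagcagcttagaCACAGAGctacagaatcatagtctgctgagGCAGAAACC
TRBV12-1 and TRBV12-2 contribute the same 15 germline bases to CDR3, and their recombination signals were identical at 38 of 39 bases. TRBV16 contributes 17 bases and its signal matched that of TRBV12-1 at 17 of 39. Over the whole second exon the TRBV12 segments were identical at 261 of 293 bases (89.1%), so they are told apart upstream of CDR3. Of the 3396 TRBV12 clonotypes, 96 listed both TRBV12-1 and TRBV12-2, and these held 96 UMIs or 0.262% of the UMIs of the pair. The pseudogene TRBV12-3 was listed first for 32 clonotypes, of which 30 had 1 UMI, and it was not counted as a member.

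Library totals ran from 2488 UMIs (KO replicate 3 mLN) to 493287 (WT replicate 3 spleen), and the limit that a count of 0 allows, 3 UMIs, ran from 0.121% to 0.000608% of a library. The libraries fell into 2 kinds. In 7 of them, with totals of 68536 and above, the last 9 CDR3 bases departed from the most frequent ones of the J segment in 26.1% to 38.3% of single-UMI clonotypes. In the other 5, both of WT replicate 1, both of KO replicate 1 and KO replicate 3 mLN, with totals of 64882 and below, that share was 2.42% to 5.85%. Values within each kind are therefore given beside the comparison of genotypes. Clonotypes at least 100 times more frequent in a library of another mouse, possible carry-over between libraries, held at most 0.40% of the UMIs of any library. Intervals below are 95% Wilson intervals and cover counting error only, and since a cell gives several UMIs, more cells of a clone and more RNA per cell could not be told apart.

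TRBV16 was the most used of the 3 members in 11 of the 12 libraries. Its median over the libraries was 4.99% of UMIs, against 1.19% for TRBV12-1 and 0.648% for TRBV12-2. By that median TRBV16 ranked 8, TRBV12-1 17 and TRBV12-2 20 of 31 V segments, and by the median share of productive clonotypes (in frame, with no stop codon) they ranked 10, 16 and 20. With each productive clonotype counted once per mouse, TRBV16 held 4.54% ± 0.365 (SD, n = 6 mice), TRBV12-1 1.68% ± 0.379 and TRBV12-2 1.0% ± 0.275. TRBV12-1 was below TRBV16 in every mouse (difference -2.86 percentage points ± 0.649 SD, n = 6 mice, exact sign-flip test, two-sided, p = 0.0312) and so was TRBV12-2 (-3.54 ± 0.482, exact p = 0.0312), which is the smallest p that 6 mice allow. TRBV12-1 exceeded TRBV12-2 in 5 of 6 mice (0.674 percentage points ± 0.425, exact p = 0.0625), and in WT replicate 4 they were at 1.28% and 1.32%. After Benjamini-Hochberg adjustment over the 10 exact tests of this report these p became 0.0781, 0.0781 and 0.104, so that no order passed 0.05.

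In the spleen TRBV16 stood at 13.3% of UMIs in WT replicate 1 (95% interval 12.7% to 13.9%), 5.15% in WT replicate 3 and 4.38% in WT replicate 4, and at 5.87%, 5.75% and 4.24% in KO replicates 1, 2 and 3. In the mLN it stood at 11.3%, 5.59% and 4.06% in WT replicates 1, 3 and 4 and at 2.75%, 4.84% and 1.57% (95% interval 1.15% to 2.14%) in KO replicates 1, 2 and 3. WT replicate 1 was thus the highest in both organs, and the genotypes overlapped in each. TRBV12-1 held 0.940%, 0.876% and 0.80% of spleen UMIs in WT replicates 1, 3 and 4 and 0.495%, 1.10% and 2.34% in KO replicates 1, 2 and 3. Its mLN values were 1.26%, 1.15% and 1.35% among WT mice and 1.23%, 1.38% and 3.62% among KO mice. The WT values lay close together, with SDs of 0.0702 and 0.10 percentage points, while KO replicate 3 was the highest in both organs. TRBV12-2 held 0.169%, 0.552% and 1.35% of spleen UMIs in WT replicates 1, 3 and 4 and 0.573%, 1.68% and 0.970% in KO replicates 1, 2 and 3. In the mLN it reached 0.175%, 0.461% and 1.82% among WT mice and 0.652%, 0.740% and 0.643% among KO mice. TRBV12-2 was thus spread 10.8-fold over the 12 libraries, with the lowest values in WT replicate 1, where TRBV16 was highest.

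**Figure D1:**
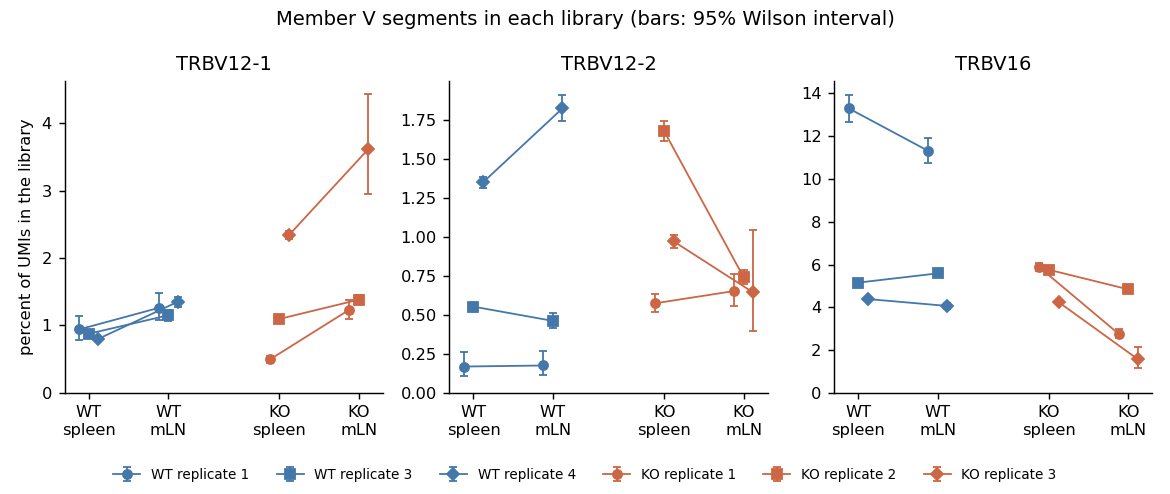
Percent of UMIs (y axis) of each member in spleen and mLN, 1 panel per member, with lines joining the organs of a mouse, blue for WT and orange for KO, and 95% Wilson intervals as bars. TRBV16 in WT replicate 1 (13.3% and 11.3%) and TRBV12-1 in KO replicate 3 (2.34% and 3.62%) sit above the other mice in both organs.

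To ask whether loss of AMPKα1 was accompanied by another use of the members, UMIs per V segment were compared between KO and WT in each organ with the edgeR quasi-likelihood test over all segments that reached 10 UMIs in 3 libraries or more. No member passed an adjusted p of 0.05 in either organ. In the spleen the log2 fold change of KO over WT was 0.59 ± 0.73 (SE) for TRBV12-1 (adjusted p = 0.70), 0.62 ± 0.76 for TRBV12-2 (adjusted p = 0.70) and -0.52 ± 0.53 for TRBV16 (adjusted p = 0.685), beside a median of 0.29 over the 25 segments tested. Of these, 2 (8%) passed, TRBV15 with a log2 fold change of 1.63 and TRBV23 with -2.58 (TRBV23 is named after its value was seen), while DESeq2 passed 1 and 3 had an unadjusted p at or below 0.05. In the mLN the log2 fold changes were 0.71 ± 0.83 for TRBV12-1 (adjusted p = 0.705), -0.28 ± 1.05 for TRBV12-2 (adjusted p = 0.830) and -1.19 ± 0.59 for TRBV16 (adjusted p = 0.655), beside a median of -0.10 over 23 segments. None of the 23 (0%) passed edgeR's test there, with 1 at an unadjusted p at or below 0.05, and DESeq2 passed none. The SE of the member fold changes ran from 0.53 to 1.05 on the log2 scale, and a difference of -1.19 did not pass, so the comparison could miss changes of that size.

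These differences moved with single mice. Without WT replicate 1 the log2 fold change of TRBV16 became 0.15 in the spleen and -0.65 in the mLN. Without KO replicate 3 that of TRBV12-1 became -0.13 in the spleen and 0.06 in the mLN, and without WT replicate 4 that of TRBV12-2 became 1.55 in the spleen and 1.08 in the mLN. In the spleen TRBV12-2 gave 0.15 without KO replicate 2 and 0.18 without WT replicate 1. Within the 7 libraries with many unusual J ends, mean TRBV16 use in KO differed from WT by 0.230 percentage points in the spleen (2 against 2 libraries) and 0.0120 in the mLN (1 KO against 2 WT), whereas within the other 5 it differed by -7.43 (1 against 1) and -9.15 (2 KO against 1 WT). For TRBV12-1 the corresponding differences were 0.879 and 0.132 within the former and -0.446 and 1.17 within the latter. For TRBV12-2 they were 0.373 and -0.402 within the former and 0.405 and 0.473 within the latter. No test was run within the kinds, which hold 1 or 2 libraries per genotype and organ.

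No member separated WT from KO without overlap in UMIs, against 1 of 25 segments (4%) in the spleen and 1 of 23 (4.35%) in the mLN, TRBV23 in both. Summed over the 3 members, mLN use was 7.20% to 12.7% in WT and 4.63% to 6.96% in KO and did not overlap. How often other sums of 3 segments separate in this way was not computed. KO minus WT of this sum was -7.52 percentage points within the 3 mLN libraries with few unusual J ends and -0.258 within the 3 with many. With each productive clonotype counted once per mouse, TRBV12-1 held 1.74%, 1.16% and 1.28% in WT replicates 1, 3 and 4 and 2.12%, 1.80% and 1.97% in KO replicates 1, 2 and 3. These did not overlap, as in 4 of 25 segments (16%), the others being TRBV2, TRBV31 and TRBV8, named after their values were seen. Among clonotypes of at least 2 UMIs, however, TRBV12-1 held 1.65%, 1.60% and 1.71% among WT mice against 2.26%, 2.17% and 1.68% among KO mice, which overlapped. All 3 members together held 6.60%, 6.66% and 7.44% of productive clonotypes among WT mice against 7.49%, 7.44% and 7.72% among KO mice (difference 0.650 percentage points, two-sided exact permutation test over n = 3 against 3 mice, p = 0.1, adjusted p = 0.143), where 0.1 is the smallest p the design allows. In UMIs over the mouse the same difference was -1.48. Without clonotypes of 1 UMI it was 0.321 (exact permutation p = 0.8), and with unusual J ends removed it was 0.373 (exact permutation p = 0.5).

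Organs were compared within mice, with mouse as a block. TRBV12-1 was higher in the mLN than in the spleen in 6 of 6 mice, by 0.273 to 1.28 percentage points, from a mean of 1.09% ± 0.643 (SD) to 1.67% ± 0.960. Its log2 fold change of mLN over spleen was 0.64 ± 0.20 (edgeR, unadjusted p = 0.00901, adjusted p = 0.113), which did not pass 0.05 over 25 segments, while DESeq2 gave 0.55 with an adjusted p of 0.00378. Counted in clonotypes in place of UMIs the difference was 0.25 (edgeR, adjusted p = 0.299), and without the largest clonotype of each segment it was 0.56 (adjusted p = 0.310). A same direction in all 6 mice was seen in 3 of 25 segments (12%), the others being TRBV13-2 and TRBV26, of which TRBV13-2 is named for this value. TRBV16 was lower in the mLN in 5 of 6 mice, all but WT replicate 3, with a log2 fold change of -0.48 ± 0.22 (edgeR, unadjusted p = 0.0498, adjusted p = 0.415) and 0.00249 counted in clonotypes. TRBV12-2 was higher in the mLN in 3 mice and lower in 3 (-0.23 ± 0.26, edgeR, adjusted p = 0.841). No segment (0%) passed edgeR's test between organs, with 3 at an unadjusted p at or below 0.05.

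The members did not rise and fall together over the libraries. The Pearson correlation of log2(percent of UMIs + 0.1) over the 12 libraries, a description since each mouse gave 2 of them, was 0.102 between TRBV12-1 and TRBV12-2, -0.564 between TRBV12-1 and TRBV16 and -0.542 between TRBV12-2 and TRBV16. Percentages of 1 library share a total, and how far this entered the correlations was not tested. Among the 22 segments found in every library, the patterns most like TRBV12-1 were those of TRBV2 (0.806) and TRBV13-2 (0.734), those most like TRBV12-2 were TRBV17 (0.740) and TRBV5 (0.724), and those most like TRBV16 were TRBV1 (0.694) and TRBV29 (0.566).

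Because a T cell with a failed rearrangement on 1 chromosome can survive with a productive one on the other, out-of-frame clonotypes record joining of a V segment without encoding a receptor. TRBV12-1 and TRBV12-2 took a larger share of out-of-frame than of productive clonotypes. For TRBV12-1 the out-of-frame shares were 7.06%, 3.53% and 3.06% in WT replicates 1, 3 and 4 and 3.98%, 4.30% and 3.74% in KO replicates 1, 2 and 3, each above the productive share of the same mouse, by 1.88 to 4.06 times. TRBV12-2 held 0.392%, 2.57% and 3.45% of out-of-frame clonotypes in WT replicates 1, 3 and 4 and 3.04%, 4.30% and 2.34% in KO replicates 1, 2 and 3. This was 2.34 to 3.87 times the productive share in 5 mice, while in WT replicate 1 it was lower out of frame, at 0.541 times, with 1 out-of-frame clonotype of 11. TRBV16 held 6.27%, 5.44% and 4.79% among WT mice and 5.85%, 5.93% and 5.38% among KO mice, between 0.991 and 1.52 times its productive share.

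With mouse as a block, the log2 ratio of out-of-frame to productive clonotypes was 1.30 ± 0.18 (SE) for TRBV12-1 (edgeR, adjusted p = 2.16e-05) and 1.53 ± 0.22 for TRBV12-2 (adjusted p = 2.54e-05). For TRBV16 it was 0.26 ± 0.14 (adjusted p = 0.102), and the difference between TRBV16 and the TRBV12 pair was not itself tested. Unequal shares were common, since 14 of the 24 segments (58.3%) passed the test and 9 (37.5%) were higher out of frame, with a median of -0.13 over the 24. Higher calls were thus 64.3% of the calls, against 45% under TMM scaling and 47.4% in DESeq2, and both TRBV12 segments passed in each. The TRBV12 ratios ranked below TRBV24 (4.21), TRBV22 (3.14) and TRBV21 (1.62) and above the other 19, and a higher out-of-frame share in all 6 mice was found in 6 of 24 segments (25%), TRBV12-1 among them. Frame and stop codons were read from CDR3 alone. A defect elsewhere in a V segment would not show, and whether any entered the ratios of these segments was not tested. Among the 7 other segments fixed as known superantigen targets, 4 were higher out of frame, TRBV24, TRBV29 (0.88), TRBV17 (0.73) and TRBV15 (0.68), 2 were lower, TRBV26 (-0.48) and TRBV13-3 (-0.57), and TRBV19 (-0.25) did not pass, with a median of 0.68. In the KO and WT comparison of UMIs, 1 of these 7 passed in the spleen, TRBV15, beside 2 of 25 segments (8%), and none in the mLN or between organs. TRBV15 no longer passed in DESeq2, without the filter, in clonotypes, without clonotypes of 1 UMI, without the largest clonotypes or with a replicate block, and in 5 of the 6 fits that left out 1 mouse no segment of the list passed.

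**Figure D2:**
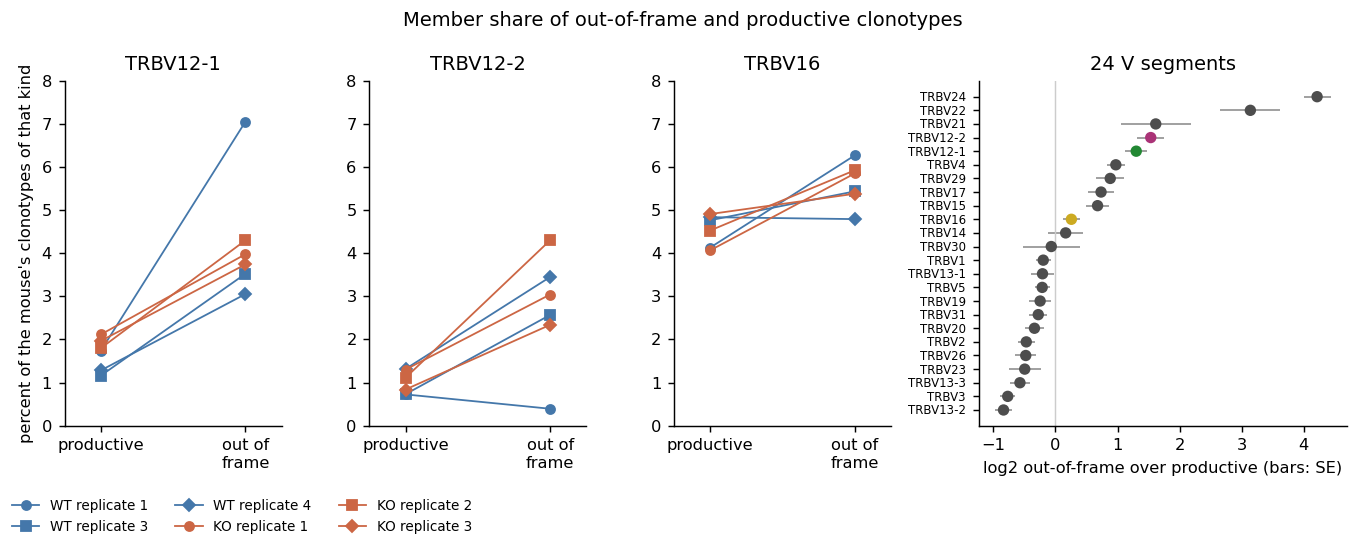
Left, percent of productive and of out-of-frame clonotypes (y axis, clonotypes counted once per mouse) that belong to each member, with lines for the 6 mice, blue for WT and orange for KO. Right, log2 ratio of out-of-frame to productive clonotypes with SE for 24 V segments, where TRBV12-1 (1.30, green) and TRBV12-2 (1.53, purple) lie to the right and TRBV16 (0.26, yellow) near 0.

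The out-of-frame excess of the pair was also present among clonotypes of at least 10 UMIs over the mouse, a limit chosen after seeing the data. There the pair held 4.55%, 8.40% and 7.87% of out-of-frame clonotypes in WT replicates 1, 3 and 4 and 8.33%, 10.8% and 6.76% in KO replicates 1, 2 and 3, or 2.48 to 4.50 times its productive share, on 1 to 21 out-of-frame clonotypes per mouse. Among clonotypes in frame but with a stop codon TRBV12-1 was lower than among productive ones, with a log2 ratio of -0.51 (edgeR, adjusted p = 0.0393), and TRBV16 was higher at 0.37 (adjusted p = 0.0274), while TRBV12-2 did not pass at -0.14 ± 0.20 (adjusted p = 0.719). In that comparison 5 of 23 segments (21.7%) passed. In the 7 libraries with many unusual J ends, 434 TRBV16 clonotypes held a stop codon and 426 of these had 1 UMI, and for TRBV12-1 these numbers were 73 and 70. In the other 5 libraries there were 2 member clonotypes with a stop codon in all. The out-of-frame share of all member clonotypes was 21.1% ± 6.29 (SD, n = 6 mice), against 12.6% ± 3.15 for the other V segments, and 27.8%, 18.9% and 13.5% in WT replicates 1, 3 and 4 against 28.2%, 23.1% and 15.1% in KO replicates 1, 2 and 3 (difference 2.11 percentage points, two-sided exact permutation p = 0.7, adjusted p = 0.778).

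The most frequent out-of-frame clonotypes show such failed joints. Here and below, capitals mark the bases that the alignment placed between the V and the J part, and the aligned parts can hold mismatches. That of TRBV12-1, joined to TRBJ1-4 in WT replicate 3, was 41 bases long and kept all 15 germline bases. It held 281 spleen and 9 mLN UMIs. That of TRBV12-2, also joined to TRBJ1-4, held 629 UMIs (0.144%) in the spleen and 297 (0.299%) in the mLN of WT replicate 4. That of TRBV16, joined to TRBJ2-7, held 195 and 114 UMIs in spleen and mLN of KO replicate 2.
TRBV12-1, WT replicate 3: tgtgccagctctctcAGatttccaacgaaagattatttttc
TRBV12-2, WT replicate 4: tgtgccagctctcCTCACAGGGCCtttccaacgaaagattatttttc
TRBV16, KO replicate 2: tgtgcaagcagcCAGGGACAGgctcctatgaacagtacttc

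How far a few clones carried a member's UMIs differed between libraries. The 2 largest clonotypes held from 15.8% (TRBV16, WT replicate 4 spleen) to 100% (TRBV12-2, KO replicate 3 mLN, 16 UMIs) of a member. The leading clonotype of each member, that with the largest mean share over the organs of a mouse, was productive and found in both organs in 18 of 18 cases. Leading TRBV16 clones held 0.245% to 6.41% of spleen UMIs, while in the spleens of WT replicate 4, KO replicate 2 and KO replicate 3 the leading TRBV12-2 clone was larger than that of TRBV16. In the spleen of KO replicate 2, however, another TRBV16 clone ranked 18, above the leading TRBV12-2 clone at rank 25. In WT replicate 1 a TRBV16–TRBJ2-7 clone held 6.41% of the spleen (723 UMIs, 95% interval 5.98% to 6.88%) and 3.14% of the mLN (376 UMIs), ranking 2 and 3 in these libraries, and made up 48.2% of TRBV16 in the spleen. In the mLN of that mouse another TRBV16 clone was larger and made up 43.4% of TRBV16. In WT replicate 3 a TRBV16–TRBJ2-5 clone held 1.74% of the spleen (8565 UMIs) and 1.85% of the mLN (1265 UMIs). In KO replicate 1 a TRBV16–TRBJ2-4 clone, in which the alignment left 2 bases between V and J, held 1.46% of the spleen and 0.286% of the mLN. The organs thus differed beyond their intervals for the clones of WT replicate 1 and KO replicate 1. For the clone of WT replicate 3 the intervals of the organs overlapped.
TRBV16, WT replicate 1: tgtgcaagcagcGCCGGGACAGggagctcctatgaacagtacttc
TRBV16, WT replicate 3: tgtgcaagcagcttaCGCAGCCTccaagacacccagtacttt
TRBV16, KO replicate 1: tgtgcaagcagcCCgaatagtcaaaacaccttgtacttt

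Without its 2 largest clonotypes, TRBV16 in WT replicate 1 stood at 5.40% in the spleen and 3.56% in the mLN, beside 3.09% to 4.19% in the other 5 spleens and 0.285% to 3.39% in the other 5 mLN. The TRBV16 clones of WT replicate 4 were smaller, the leading one at 0.245% of the spleen and 5.58% of TRBV16, where the largest clone of that spleen alone made up 9.01% of TRBV16.

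For TRBV12-1 the leading clone of KO replicate 3 took 2.41% of the mLN (60 UMIs, 95% interval 1.88% to 3.09%) and 0.457% of the spleen (1009 UMIs), and made up 66.7% of the TRBV12-1 UMIs of that mLN, the library of 2488 UMIs. In the spleen of the same mouse another TRBV12-1 clone, joined to TRBJ2-2, was larger, with 1593 UMIs (0.721%). In the other 5 mice the leading TRBV12-1 clone held 0.0601% to 0.550% of the spleen and 0.0643% to 0.526% of the mLN. For TRBV12-2, the leading clones of KO replicate 2 (0.751% of the spleen, 1171 UMIs) and KO replicate 3 (0.640%, 1413 UMIs) made up 44.8% and 65.9% of TRBV12-2 in the spleen, and that of WT replicate 4 stood at 0.403% of the spleen and 0.426% of the mLN.
TRBV12-1, KO replicate 3: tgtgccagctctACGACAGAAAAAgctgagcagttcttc
TRBV12-2, KO replicate 2: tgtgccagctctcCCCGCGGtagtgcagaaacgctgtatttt
TRBV12-2, KO replicate 3: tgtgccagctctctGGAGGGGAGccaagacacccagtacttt
TRBV12-2, WT replicate 4: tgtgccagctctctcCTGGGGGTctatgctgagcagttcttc

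**Figure D3:**
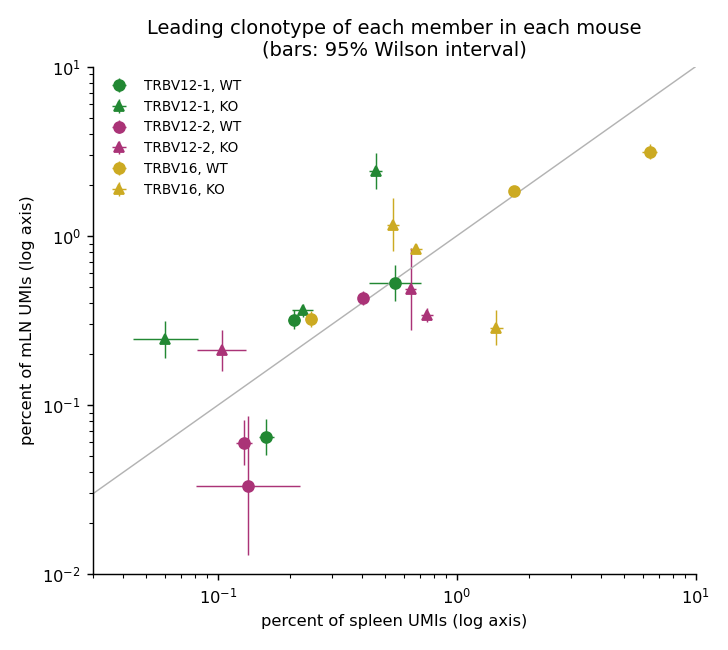
Percent of spleen UMIs (x axis) against percent of mLN UMIs (y axis), both on log axes, of the leading clonotype of each member in each mouse, with 95% Wilson intervals, circles for WT, triangles for KO, and the line of equal share. The TRBV16 clone of WT replicate 1 (6.41% and 3.14%) lies farthest up and to the right.

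Spread of the member clones over both organs was measured with the Morisita-Horn overlap, which is 0 for no shared clone and 1 for equal frequencies. It was 0.745, 0.978 and 0.787 in WT replicates 1, 3 and 4 and 0.573, 0.713 and 0.418 in KO replicates 1, 2 and 3 for member clonotypes, against 0.432 to 0.869 for the other V segments (mean difference 0.0848 ± 0.134 SD, higher in 4 of the 6, exact sign-flip test, p = 0.188, adjusted p = 0.234). The difference was positive in 3 of 3 WT mice and in 1 of 3 KO mice. Of member clonotypes with at least 10 UMIs over the mouse, 75.4% to 100% were found in both organs in 5 mice, and 15.2% in KO replicate 3 with its mLN library of 2488 UMIs, where the other V segments gave 20.4%. In the other 5 mice the other V segments gave 83.1% to 98.0%, and in WT replicate 3 members were lower, at 75.4% against 83.1%. The largest member clonotype held 34.6%, 26.0% and 6.03% of member UMIs in WT replicates 1, 3 and 4 and 13.6%, 9.98% and 23.7% in KO replicates 1, 2 and 3, higher than the share of the largest other clonotype among other UMIs in 6 of 6 mice (difference 11.6 percentage points ± 9.10 SD, exact p = 0.0312, adjusted p = 0.0781). The members are the smaller set, with 6262 productive clonotypes over the mice, and whether set size entered this difference was not tested.

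Joining to the TRBJ1 cluster, the J segments nearest to the first D segment, was lower among members than among other V segments in each mouse, but the difference did not pass 0.05 after adjustment. Productive member clonotypes used TRBJ1 in 25.9% ± 4.78 (SD, n = 6 mice), against 34.6% ± 1.98 for the other V segments, and the share was lower in every mouse (difference -8.67 percentage points ± 4.48, exact sign-flip test, p = 0.0312, adjusted p = 0.0781). KO replicate 2 had the largest difference, -17.3, and without it the mean was -6.93. The share was 30.2% ± 9.41 for TRBV12-1, which in WT replicate 4 exceeded the other V segments at 45.5% against 38.2%, 22.3% ± 7.34 for TRBV12-2 and 24.99% ± 4.29 for TRBV16. Without clonotypes of 1 UMI the difference was -5.48 (exact p = 0.0312, adjusted p = 0.0521). Among single J segments, TRBJ2-7 was joined to 20.2% ± 4.28 of TRBV12-2 and 21.0% ± 5.34 of TRBV16 clonotypes but 11.8% ± 5.37 of TRBV12-1 clonotypes, beside 17.6% ± 1.07 of the others. TRBJ2-5 was joined to 23.6% ± 13.6 of TRBV12-2 and 19.5% ± 9.85 of TRBV16 clonotypes, beside 12.2% ± 1.47, with large spreads between mice.

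**Figure D4:**
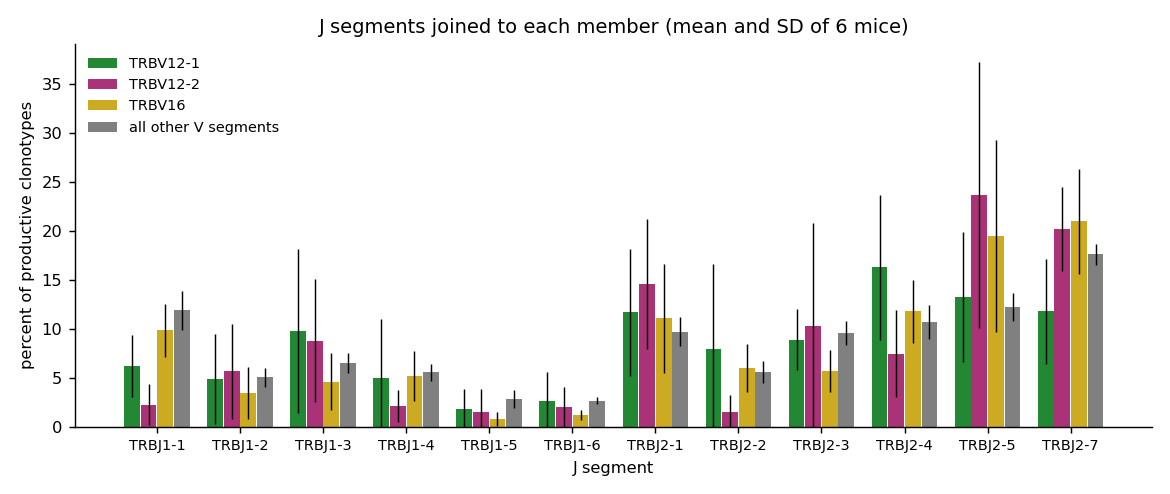
Percent of productive clonotypes (y axis, mean and SD of 6 mice, SD bars stopping at 0) joined to each J segment (x axis) for the members and for all other V segments (gray). The TRBJ1-1 bars of TRBV12-1 (6.20%) and TRBV12-2 (2.26%) lie below that of the other V segments (11.9%).

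Mean CDR3 length of productive member clonotypes was 41.1 nt ± 0.352 (SD, n = 6 mice), against 41.5 nt ± 0.155 for the other V segments, and it was shorter in 5 of the 6 (difference -0.462 nt ± 0.432, exact sign-flip test, p = 0.0625, adjusted p = 0.104). It was 40.9 nt ± 0.471 for TRBV12-1, 40.6 nt ± 0.922 for TRBV12-2 and 41.2 nt ± 0.305 for TRBV16. Of TRBV12-2 clonotypes 50.7% ± 21.5 were 42 nt long, and this share ranged from 20% to 71.1% between mice. Among clonotypes of at least 2 UMIs it was 36.3% ± 18.98, so part of that peak lay in clonotypes of 1 UMI, and the leading TRBV12-2 clones of WT replicates 3 and 4 and KO replicates 2 and 3 were 42 nt long. Member length was 41.1 nt ± 0.522 in WT and 41.0 nt ± 0.187 in KO (difference -0.0673 nt, exact permutation over n = 3 against 3 mice, p = 0.8, adjusted p = 0.8). Weighted by UMIs the difference was -0.866 nt (exact permutation p = 0.1, the smallest possible, adjusted p = 0.2).

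**Figure D5:**
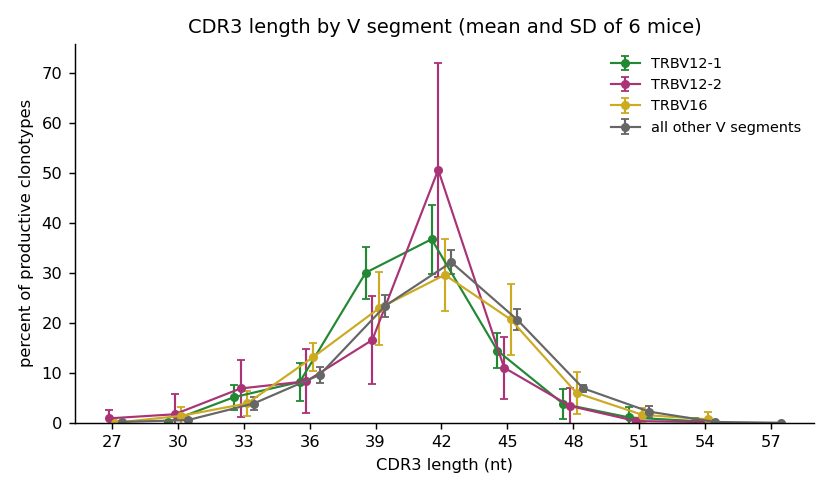
Percent of productive clonotypes (y axis, mean and SD of 6 mice) by CDR3 length in nt (x axis) for TRBV12-1, TRBV12-2, TRBV16 and all other V segments (gray). The TRBV12-2 curve reaches 50.7% at 42 nt, where the other V segments reach 32.2%.

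At the V end, productive clonotypes of at least 2 UMIs had lost a mean of 1.54 nt ± 0.490 (SD, n = 6 mice) for TRBV12-1, 1.45 nt ± 0.566 for TRBV12-2 and 2.49 nt ± 0.374 for TRBV16, beside 2.41 nt ± 0.0834 for the other V segments. The whole germline end printed above was kept by 105 of 290 TRBV12-1 clonotypes (36.2%), 86 of 190 TRBV12-2 clonotypes (45.3%) and 180 of 819 TRBV16 clonotypes (22.0%), pooled over mice.

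Few member CDR3 recurred between mice. Among productive clonotypes, the encoded amino acid sequence was found in at least 2 mice for 25 of 1191 TRBV12-1 sequences (2.10%), 8 of 860 TRBV12-2 sequences (0.930%) and 91 of 3870 TRBV16 sequences (2.35%). Without possible carry-over these numbers were 13, 4 and 65. The most widely found TRBV16 sequence, in 4 mice, was the KO replicate 1 clone printed above, with 947 UMIs in the spleen of that mouse and 1 to 6 UMIs in the spleens of KO replicates 2 and 3 and WT replicate 4, in the same nucleotides. For TRBV12-1, 2 sequences were found in 3 mice each. The one joined to TRBJ1-4 had 94 UMIs in the spleen of KO replicate 1 and 1 UMI each in KO replicates 2 and 3, and the one joined to TRBJ2-3 had 223 UMIs in the spleen of WT replicate 4 and 1 UMI each in WT replicate 3 and KO replicate 3. For TRBV12-2 no sequence was found in more than 2 mice. The leading clone of KO replicate 2 had 2 UMIs in KO replicate 3, and the leading clone of KO replicate 3 had 16 UMIs (0.0125%) in the mLN of KO replicate 2. By frequency these low counts were at least 100 times below the same clonotype in the other mouse, except for the 16 UMIs, which were not counted as possible carry-over.

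Some sequences recurred through different nucleotides. With carry-over and clonotypes of 1 UMI left out, 14 TRBV16, 3 TRBV12-1 and 1 TRBV12-2 amino acid sequences were found in several mice without any nucleotide sequence in common. The first by number of mice was a TRBV16–TRBJ2-7 sequence of 12 residues in 3 mice, whose nucleotide forms differ around the joint. The first form held 10 and 14 UMIs in the mLN and spleen of KO replicate 2. The second held 11 and 150 UMIs in the mLN and spleen of WT replicate 3, where another form had 2 UMIs. The third held 16 and 268 UMIs in the mLN and spleen of WT replicate 4. As aligned, the V and J parts of the first and second met with no base between them. In the third, 3 bases (capitals) lay between. The aligned V part of the third departs from the germline TRBV16 end printed above, and the J part of the second departs from that of the first. These joints may therefore hold more bases from outside the germline than the alignment marked.
KO replicate 2: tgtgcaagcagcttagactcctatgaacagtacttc
WT replicate 3: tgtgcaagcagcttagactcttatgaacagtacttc
WT replicate 4: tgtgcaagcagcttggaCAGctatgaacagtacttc
For TRBV12-1 the first such sequence, joined to TRBJ2-4, had 13 residues and was found in KO replicate 2 with 6 and 4 UMIs in mLN and spleen, and in WT replicate 3 with 24 and 193 UMIs.
KO replicate 2: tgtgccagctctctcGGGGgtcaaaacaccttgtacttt
WT replicate 3: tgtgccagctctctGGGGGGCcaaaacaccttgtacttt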

How the data were processed

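TCR beta libraries of spleen and mLN from 3 WT and 3 KO mice were analyzed. The authors reverse transcribed RNA with constant region primers, added UMIs, sequenced on a MiSeq, clustered reads by UMI with MIGEC and aligned them with MiXCR, versions not given in the sources used here. The deposited count of each clonotype holds whole numbers and was read as UMIs. The deposited clone fraction equals that count over the library total. The authors downsampled before their own analysis, the deposited tables are not. Assembly preceded deposition, so sequence errors could not be corrected here.

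Entries with the same CDR3 and V segment were summed. UMIs or clonotypes per V segment were tested with edgeR 4.0.16 (quasi-likelihood, library totals, at least 10 UMIs in at least 3 libraries, Benjamini-Hochberg adjustment) and, as an alternative, DESeq2 1.42.0, in R 4.3.3. Exact tests ran in Python 3.11.15. The models were tested on simulated data. Organs were paired by mouse: within a mouse, deviations from group means correlated at 0.390 to 0.843. By rule, named clonotypes were the largest per member and mouse and those in most mice, and named segments the members, the superantigen targets and the most like patterns, while out-of-frame clonotypes, sequences shared through different nucleotides, TRBV21 and TRBV22 were named after their values were seen. Members, lists and rules were chosen with earlier results of these data known. CDR3 amino acid sequences are not printed. Alternatives covered scaling, filters, rare clonotypes, frame, depth, carry-over, J ends and single mice. Replicates are separate mice of 1 experiment.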

Additional observations from a re-analysis of the deposited data

Results flagged for a closer look

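The TRBJ1 share of members minus that of the other V segments was -17.3 percentage points in KO replicate 2, apart from the other 5 mice, which ran from -8.68 to -5.36, a gap of 0.723 of the range. The shares behind it were 18.1% for members and 35.4% for the other V segments. Among clonotypes of at least 2 UMIs they were 26.0% and 36.1%, beside 25.5% and 32.7% in KO replicate 1, so the flagged value rested partly on clonotypes of 1 UMI. In 13 sets of 6 mice examined this was the 1 value so far from the rest, and chance flags about 1 in 20 sets.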

How the results depend on the processing

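Of the members, TRBV12-1 and TRBV12-2 stayed higher out of frame than in productive clonotypes, past the threshold, under each alternative with edgeR or DESeq2 other than that with stop codons in place of frame, where the log2 ratios were -0.51 and -0.14 and 5 segments passed. By the exact sign-flip test of the shares alone, p was 0.0312, 0.0625 and 0.0625 for TRBV12-1, TRBV12-2 and TRBV16, each 0.0625 adjusted. TMM scaling passed 20 of 24 segments and DESeq2 19, of which 9 each were higher, against 9 of 14, and moved the median of all segments from -0.13 to -0.25 and -0.32. Between KO and WT in the spleen, DESeq2, clonotypes in place of UMIs, no filter and removal of clonotypes of 1 UMI each passed 1 segment, TRBV23 and not TRBV15, and removal of the largest clonotypes passed 0. Leaving out 1 mouse gave 0 to 1 segments there, 0 to 0 in the mLN, 0 to 0 between organs and 11 to 15 out of frame. Between organs DESeq2 passed 1 (TRBV12-1) and an equal depth of 2488 UMIs passed 1 (TRBV13-2). At that depth TRBV12-2 turned to 0.12 (KO over WT, mLN) and 0.19 (mLN over spleen), and TRBV16 turned to 0.00249 between organs in clonotypes. With single mice left out, KO over WT ran from -0.13 to 0.98 for TRBV12-1 and from -0.80 to 0.15 for TRBV16 in the spleen, from 0.15 to 1.55 for TRBV12-2 there, and from -0.75 to 1.08 for TRBV12-2 in the mLN. The KO minus WT member CDR3 length was -0.866 nt weighted by UMIs, 0.136 nt without clonotypes of 1 UMI and -0.352 to 0.159 nt over single mice left out, the member clonotype share -1.48 in UMIs and 0.50 to 0.920, and the member out-of-frame share -2.48 in UMIs and -1.17 to 5.97. The cause of these changes was not tested, apart from the mouse or unit left out. Each exact test leaving out 1 mouse is too small to pass 0.05.

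WT and KO share replicate numbers 1 and 3, but these are different mice, and the deviations of same-numbered libraries from their group means correlated at -0.00293 to 0.316 over 4 pairs. With the replicate number as a block, on these 4 mice, 0 segments passed in the spleen and 2 in the mLN (TRBV1 and TRBV13-2), TRBV12-2 in the mLN turned to 1.19, and the paired KO minus WT differences were 0.119 nt for member length, 0.974 percentage points for member clonotype share and -1.66 for the out-of-frame share. Without the mouse block, 0 segments passed between organs and 13 out of frame.

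The depth of the KO replicate 3 mLN library, 2488 UMIs with 16 for TRBV12-2 and 39 for TRBV16, limits every mLN comparison, and with 3 mice per genotype no exact permutation test can go below 0.1.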
